A study of Homo sapiens with 14 samples.

Results

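The mRNA of 8 genes was followed in cells of RS4;11, an established line from a human B-precursor leukemia in which KMT2A is rearranged, during exposure to the synthetic glucocorticoid dexamethasone. The genes were BTG1, BTG2, BTG3, TOB1, TOB2, ZFP36, ZFP36L1 and ZFP36L2, grouped by their shared part in mRNA decay, with earlier results of these data known. Microarrays were available for 4 samples labelled Untreated, 5 labelled Dex-treated 8 hours and 5 labelled Dex-treated 24 hours, the treated cells with dexamethasone at 10 nM. Cells of all groups had first been starved of hormone for 48 h in medium whose serum was stripped of steroids. Untreated cells were not sampled at 8 h or 24 h, so time in culture and treatment cannot be told apart. RS4;11 is 1 cell line, and nothing says whether samples of a group came from separate cultures. The p-values therefore rest on the spread from array to array, which may be technical. Probe sets annotated with exactly 1 gene were found for 7 of the 8 members, 16 probe sets in all out of 19070, and BTG2 was not analysed here.

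BTG and TOB proteins share an N-terminal domain that binds the catalytic subunits of the CCR4-NOT complex, which shortens poly(A) tails and so starts the decay of an mRNA. They are known for holding back cell division, and BTG1 is a gene recurrently deleted in B-precursor leukemia. ZFP36, also called tristetraprolin, and its paralogs ZFP36L1 and ZFP36L2 are zinc finger proteins that bind AU-rich elements in the 3′ ends of mRNAs and bring the same complex to them. In developing B cells ZFP36L1 and ZFP36L2 are known to limit division during recombination of the immunoglobulin genes. BTG1 is also widely described as a transcript that rises with glucocorticoids in lymphoid cells.

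The DNA before the gene starts is shown for BTG1, which rose the most of the members, for ZFP36, which rose less, and for ZFP36L1, which was not called in either comparison with untreated cells. The windows are the 250 bases before a start in RefSeq on build GRCh38.p14, read 5′ to 3′ on the strand of the gene, and capitals mark FOXO core motifs (GTAAACA) and the TGACG core of cAMP response elements on either strand. ZFP36L1 has 2 starts in the table, and the window printed lies before the start inside the longest annotated gene.
BTG1, chr12:92145847-92146096, minus strand: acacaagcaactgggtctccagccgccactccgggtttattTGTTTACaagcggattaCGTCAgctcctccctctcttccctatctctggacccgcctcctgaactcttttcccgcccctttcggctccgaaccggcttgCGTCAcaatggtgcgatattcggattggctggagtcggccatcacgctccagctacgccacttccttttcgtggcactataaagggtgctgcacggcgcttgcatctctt
ZFP36, chr19:39406597-39406846, plus strand: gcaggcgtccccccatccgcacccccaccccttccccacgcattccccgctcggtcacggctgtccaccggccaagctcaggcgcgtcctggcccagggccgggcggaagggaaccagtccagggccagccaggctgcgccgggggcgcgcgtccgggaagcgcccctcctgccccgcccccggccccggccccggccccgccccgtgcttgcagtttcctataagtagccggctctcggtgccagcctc
ZFP36L1, chr14:68793417-68793666, minus strand: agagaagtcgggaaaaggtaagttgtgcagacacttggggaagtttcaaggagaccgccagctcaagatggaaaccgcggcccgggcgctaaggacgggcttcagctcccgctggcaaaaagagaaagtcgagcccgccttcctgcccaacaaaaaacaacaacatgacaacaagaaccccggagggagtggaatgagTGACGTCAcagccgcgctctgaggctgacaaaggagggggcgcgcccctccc
The sequence table held 8 windows for 6 of the measured members, and ZFP36L2 is named only. The palindrome bound by the glucocorticoid receptor, searched as GNACA and TGTNC with 3 free bases between them, is in 0 of the 8 windows and in 0.327% of the 35116 windows of all genes. The shorter motif AGAACA, a single arm of that site, is also in 0 of the 8, against 12.4% of all windows. The FOXO core stands once, in BTG1, 209 to 203 bases before the start on the minus strand of the window, and 2.98% of all windows hold it. The TGACG core, held by 21.2% of all windows, occurs 2 times in BTG1, once in 1 of the 2 windows of TOB1 and in both windows of ZFP36L1. In the ZFP36L1 window shown, 2 such cores on opposite strands overlap in the palindrome TGACGTCA. CCAAT boxes and GC boxes (GGGCGG), held by 32.0% and 42.6% of all windows, were also searched and are not marked. The ZFP36 window has 3 GC boxes and 0 CCAAT boxes, the BTG1 window 1 of each, and the ZFP36L1 window shown 0 of either. These are matches of letters within short windows and no measure of binding.

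The deposited values are log2 expression values, on which a difference of 1 is a doubling. A gene value is the mean of those of its probe sets that passed a filter on the spread over all arrays. A gene was called at an adjusted p below 0.05 in a limma fit across all genes that passed. The filter kept 6763 of 11963 genes, and all 7 measured members among them, with 12 of their 16 probe sets. The labels place the arrays in 5 runs (arrays that share a date and a letter) on 4 days: runs 1 and 2 fall on day 1, runs 1 to 4 hold 1 array of each group, and run 5 holds no untreated array. The medians of the arrays lay between 6.03 and 6.11. FKBP5 and TSC22D3, canonical glucocorticoid targets, rose by 2.49 and 2.30 at 8 h (limma adjusted p = 4.91e-07 and 8.75e-12). Of the 8 B-precursor markers on the arrays, 6 lay above the 75th percentile of all genes, VPREB1 and IGLL1 highest, while DNTT and CD22 lay at percentiles 37.5 and 57.6. NKG7 alone of 7 T and NK cell markers passed that percentile, and none of 8 monocyte and granulocyte or 5 erythroid and platelet markers did.

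After 8 h, 3 of the 7 members had risen and 0 had fallen, and after 24 h 5 had risen and 1 had fallen. At 8 h, BTG1 had risen 2.19-fold, ZFP36L2 1.77-fold and ZFP36 1.35-fold, and at 24 h TOB1 and TOB2 had risen as well, while BTG3 was lower. ZFP36L1 was not called at either time. Of all genes tested, 34.5% were called at 8 h and 63.4% at 24 h, so the members' 3 of 7 and 6 of 7 are read against a background in which calls were common. Their median log2 fold change was 0.21 at 8 h and 0.58 at 24 h, where the median over all genes was -0.03 and -0.04. Between 8 h and 24 h, where 47.9% of all genes were called, 5 members rose and 1 fell. Arrays of the groups compared did not overlap for 3 of the 7 members at 8 h, against 28.7% of all genes. At 24 h against untreated cells this held for 6 of 7, against 54.7% of all genes. Between 8 h and 24 h it held for 6 of 7, against 36.1%. Both comparisons with untreated cells use the same 4 untreated arrays, and both comparisons with 8 h the same 5.

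**Figure D1:**
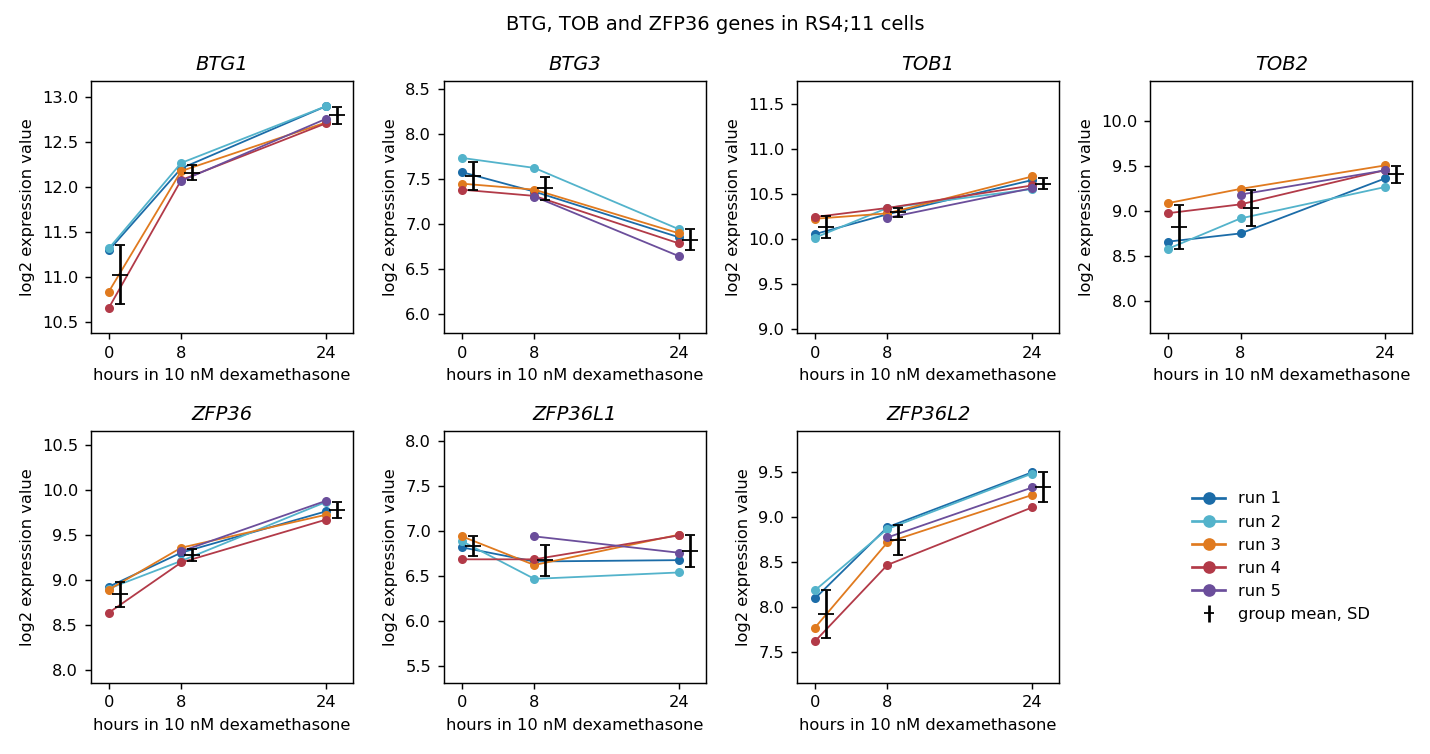
Log2 expression values of the 7 measured members (vertical axes, each spanning the same range) against hours in 10 nM dexamethasone, 1 point per array, lines joining arrays of a run, and black marks the group mean with its SD (n = 4 untreated, 5 at 8 h, 5 at 24 h). The lines of BTG1, ZFP36, ZFP36L2, TOB1 and TOB2 rise in every run, those of BTG3 fall, and those of ZFP36L1 go both ways.

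Of the BTG genes, BTG1 showed the largest change of any member. It lies on chromosome 12 at 92140278 to 92145846 (GRCh38.p14), and its untreated arrays gave 11.3, 11.32, 10.84 and 10.66. The 8 h arrays gave 12.21, 12.27, 12.18, 12.07 and 12.08, and the 24 h arrays 12.9, 12.9, 12.72, 12.76 and 12.71. No group overlapped another, and the untreated arrays of day 1 were higher than those of the later days. The log2 fold change was 1.13 (SE 0.12, limma adjusted p = 2.55e-06) at 8 h and 1.77 (SE 0.12, limma adjusted p = 2.89e-09) at 24 h, a 3.4-fold rise. BTG1 stood 120th of 6763 genes by fold change at 8 h and 137th at 24 h. It was higher in 4 of 4 runs at both times, by 0.90 to 1.42 at 8 h and by 1.58 to 2.05 at 24 h, and rose in 5 of 5 runs between them, by 0.55 to 0.69.

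BTG3, a family member described as a target of the tumor suppressor p53 and on chromosome 21 at 17593653 to 17612901, was the member that fell. Its untreated arrays gave 7.576, 7.734, 7.448 and 7.381, and the 8 h arrays 7.36, 7.623, 7.382, 7.305 and 7.312, so that these groups overlapped. The 24 h arrays gave 6.852, 6.941, 6.896, 6.642 and 6.784, below every array of the other groups. The log2 change was -0.14 (SE 0.09, limma adjusted p = 0.28) at 8 h and -0.71 (SE 0.09, limma adjusted p = 5.72e-06) at 24 h, and from 8 h to 24 h it fell by 0.57 (SE 0.09, limma adjusted p = 7.01e-05). The gene value averages 3 unlike probe sets: 205548_s_at and 213134_x_at fell by 1.12 and 1.11 at 24 h (limma adjusted p = 2.8e-07 and 1.36e-06). With the run as a block 205548_s_at was also called lower at 8 h (-0.26, limma adjusted p = 0.00616), as it was without replicate 2 of 8 h (-0.35, limma adjusted p = 0.0304). The third, 215425_at, was dim, with untreated values of 3.39 to 3.71, and its difference was 0.10 (limma adjusted p = 0.62). Probe sets whose names end in x_at can read related sequences, and what else 213134_x_at reads was not tested.

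TOB1 and TOB2, which are larger relatives of the BTG proteins that also bind poly(A)-binding protein, were called higher at 24 h and not at 8 h. TOB1 (chromosome 17, 50862223 to 50867978) had untreated values of 10.05, 10.01, 10.22 and 10.24. Its 8 h arrays gave 10.27, 10.34, 10.28, 10.23 and 10.34, and its 24 h arrays 10.65, 10.55, 10.69, 10.56 and 10.59. The 24 h arrays stood above all others, while 1 of the 5 arrays at 8 h overlapped the untreated range. TOB1 rose by 0.48 at 24 h (SE 0.07, limma adjusted p = 2.21e-05), and its difference at 8 h was 0.16 (SE 0.07, limma adjusted p = 0.0919). TOB2 (chromosome 22, 41433494 to 41446801) had untreated values of 8.659, 8.58, 9.087 and 8.975. Its 8 h arrays gave 8.75, 8.917, 9.245, 9.182 and 9.073, and its 24 h arrays 9.362, 9.266, 9.506, 9.451 and 9.454. As for TOB1, no 24 h array fell into the range of the others, and the 8 h and untreated ranges overlapped, with the lowest values of both groups on day 1. TOB2 rose by 0.58 at 24 h (SE 0.12, limma adjusted p = 0.000416), with a difference of 0.21 at 8 h (SE 0.12, limma adjusted p = 0.195).

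At 8 h both TOB genes were higher than untreated cells in 4 of 4 runs, TOB1 by 0.06 to 0.34 and TOB2 by 0.09 to 0.34. With the run as a block, which compares arrays within a run, the limma adjusted p at 8 h became 0.0339 for TOB1 and 0.0464 for TOB2, each at a log2 fold change of 0.18. The block thus raised the number of members called at 8 h from 3 to 5, and the share of all genes called from 34.5% to 46.4%. The day as a block called both (limma adjusted p = 0.0269 and 0.0364). Of the 2 other forms of block each called 1 of them: TOB2 missed with the run as a random block (limma adjusted p = 0.0631), and TOB1 with the title number as the block (limma adjusted p = 0.0703).

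Of the ZFP36 genes, ZFP36 itself, on chromosome 19 at 39406847 to 39409407, was measured by 1 probe set, with untreated values of 8.93, 8.909, 8.897 and 8.641. The 8 h arrays gave 9.308, 9.216, 9.363, 9.323 and 9.199, the 24 h arrays 9.767, 9.871, 9.729, 9.884 and 9.675, and no group overlapped another. It rose by 0.44 at 8 h (SE 0.08, limma adjusted p = 0.000441) and by 0.94 at 24 h (SE 0.08, limma adjusted p = 3.53e-08), and stood 577th and 438th of 6763 genes. Each of the 4 complete runs showed the rise, by 0.31 to 0.56 at 8 h and by 0.83 to 1.03 at 24 h.

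ZFP36L2, on chromosome 2 at 43222402 to 43226606, rose more than ZFP36. Its untreated arrays gave 8.1, 8.19, 7.776 and 7.624, the 8 h arrays 8.891, 8.871, 8.722, 8.777 and 8.472, and the 24 h arrays 9.501, 9.487, 9.249, 9.332 and 9.111. The groups did not overlap, and run 4 gave the lowest array of each. The log2 fold change was 0.82 at 8 h (SE 0.12, limma adjusted p = 9.37e-05) and 1.41 at 24 h (SE 0.12, limma adjusted p = 6.77e-08), a 2.66-fold rise that stood 209th of 6763 genes. Within the 4 complete runs the rise was 0.68 to 0.95 at 8 h and 1.30 to 1.49 at 24 h.

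ZFP36L1, on chromosome 14 at 68787655 to 68796243, had untreated values of 6.823, 6.892, 6.945 and 6.69. Its 8 h arrays gave 6.666, 6.473, 6.627, 6.945 and 6.69, and its 24 h arrays 6.681, 6.544, 6.964, 6.763 and 6.956. The ranges of all groups overlapped. The differences from untreated cells were -0.16 (SE 0.11, limma adjusted p = 0.281) at 8 h and -0.06 (SE 0.11, limma adjusted p = 0.668) at 24 h, and in 2 of 4 runs the 24 h array was the higher one. This gene value rests on 1 of 4 probe sets, 211965_at, since the others fell short of the filter on spread. The brightest of the 4, 211962_s_at, gave 11.18 to 11.52 in untreated cells and 11.35 to 11.59 at 24 h, a difference of 0.11 (SE 0.11, limma adjusted p = 0.481). A p above the threshold does not show that ZFP36L1 was constant.

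Over all 16 probe sets, tested without the filter, 5 were called higher and 0 lower at 8 h, where 16.9% of all 19070 probe sets were called. At 24 h, where 37.1% of all were called, 8 were higher and 2 lower. Between 8 h and 24 h, where 24.9% of all were called, 7 were higher and 2 lower. At 24 h the 2 probe sets of BTG1 and the 3 of ZFP36L2 were all called higher, and the size of the rise differed between probe sets of a gene: 1.58 and 1.95 for BTG1, and 0.94, 1.41 and 1.88 for ZFP36L2. The smallest of these, 201367_s_at of ZFP36L2, was dim in untreated cells, at 3.64 to 4.48, and was not called at 8 h (0.48, limma adjusted p = 0.154), but was called there with the run as a block (0.48, limma adjusted p = 0.000546). For TOB2, 222243_s_at was called at 24 h, while 221496_s_at was not (0.33, limma adjusted p = 0.0912). It was called with the run as a block (0.39, limma adjusted p = 0.00471) and without replicate 4 of 24 h (0.41, limma adjusted p = 0.0312). Between 8 h and 24 h neither 201367_s_at nor 221496_s_at was called with the settings of the report (0.47 and 0.31, limma adjusted p = 0.11 and 0.117). Both were called with the run as a block (limma adjusted p = 0.000219 and 0.0152) and within day 1 alone (limma adjusted p = 0.0286 and 0.00385).

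**Figure D2:**
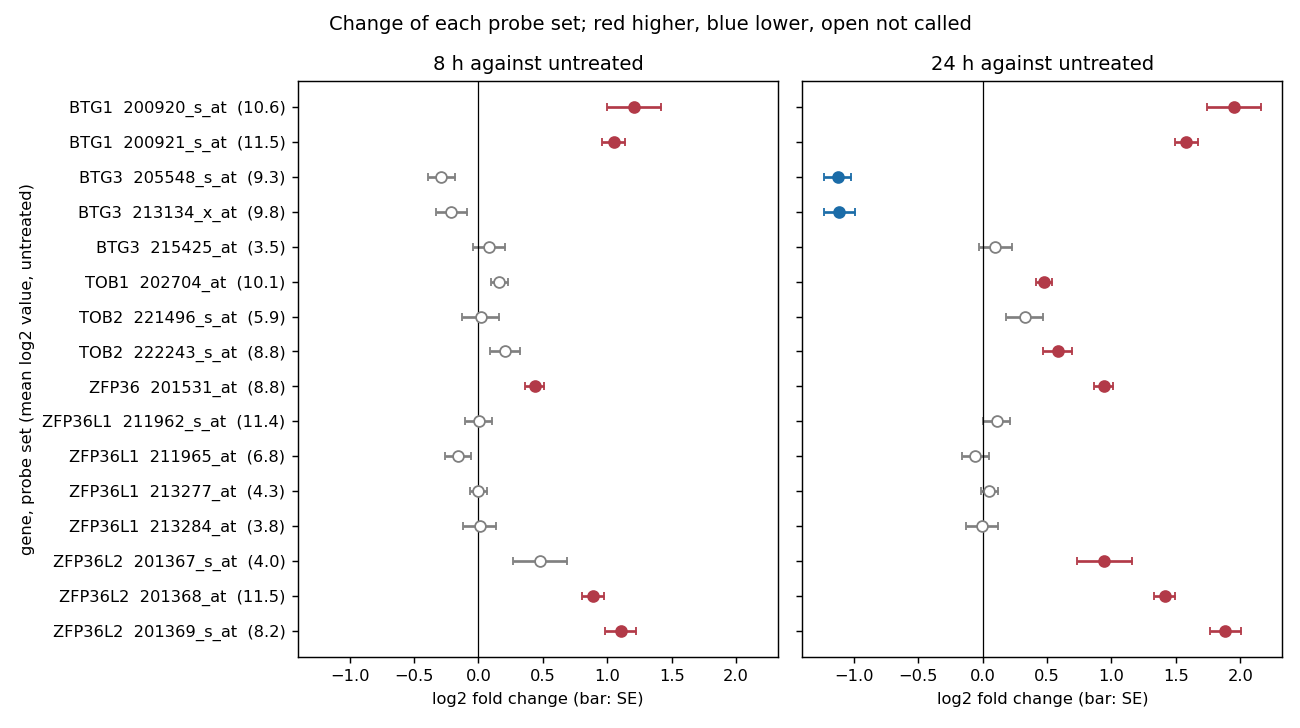
Log2 fold change with its SE for each of the 16 probe sets (rows, with the mean untreated log2 value in parentheses) at 8 h and at 24 h against untreated cells, filled points where limma called the probe set. Both bright probe sets of BTG3 fell by about 1.1 at 24 h, and the 4 of ZFP36L1 stayed near 0, uncalled.

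The level of some probe sets differed between the days in the labels, and which step of the work these dates belong to was not determined. For BTG1, 200920_s_at averaged 11.03 in untreated cells on day 1 (n = 2 arrays) and 10.15 on the later days (n = 2), and the day 1 arrays were also the higher ones at 8 h and at 24 h. The other BTG1 probe set, 200921_s_at, was higher on day 1 in untreated cells, at 11.59 against 11.36, and lower on day 1 at 24 h, at 12.94 against 13.13. For TOB2, 221496_s_at averaged 6.57 at 24 h on day 1 (n = 2) and 5.93 on later days (n = 3), and its untreated means were 5.90 and 5.82. Fitted within day 1 alone or within days 2 to 4 alone, the BTG1 gene value was called higher at 8 h and at 24 h. The part of the day in the differing sizes was not tested.

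The share of the 24 h change that was present at 8 h was computed from the group means and within each complete run, as a description. At 8 h BTG1 had reached 64% of its 24 h log2 change, with 56.6% to 70.9% in the 4 complete runs, and ZFP36L2 58.3%, with 52.5% to 64.2%. ZFP36 had reached 46.5%, with 31.9% to 56% over runs. The shares were 35.7% for TOB2 and 33.9% for TOB1, spread over runs from 12.9% to 49.2% and from 12% to 62%, and 19.5% for BTG3, with 11.6% to 29.9%. Most of these ranges overlapped: that of TOB1 overlapped those of all the other members named here, that of TOB2 those of BTG3 and ZFP36, and that of ZFP36L2 those of BTG1 and ZFP36. The range of BTG3 lay below those of BTG1, ZFP36L2 and ZFP36, and differences in these shares were not tested. All 6 of these members still moved in the same direction between 8 h and 24 h, BTG1 by 0.64, ZFP36L2 by 0.59 and ZFP36 by 0.50 (limma adjusted p = 0.000257, 0.000699 and 4.74e-05), TOB2 by 0.37 and TOB1 by 0.31 (0.011 and 0.00112).

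Paralogs were compared within arrays, taking the difference of 2 gene values on each array and testing it between treated and untreated arrays. The test was the exact two-sided permutation test of 5 against 4 arrays, whose smallest possible p is 0.0159, adjusted over the 20 tests made (5 pairs, 2 times, and gene means or brightest probe sets). It permuted the arrays without regard to run or day, so the pairing of arrays by run was not used. The pairs were picked after the values were seen. BTG1 rose relative to BTG3 by 1.27 (SE 0.10) at 8 h and 2.48 (SE 0.11) at 24 h, each with exact p = 0.0159 and adjusted p = 0.0212. ZFP36 changed less than ZFP36L2, by 0.39 (SE 0.12, exact p = 0.0317, adjusted p = 0.0396) at 8 h, and the difference at 24 h was -0.47 (SE 0.11, exact p = 0.0159, adjusted p = 0.0212). The probe sets of ZFP36L2 differ more widely among themselves, with rises of 0.94, 1.41 and 1.88 at 24 h. The smallest, from the dim 201367_s_at, equals the 0.94 of the single probe set of ZFP36. The SE and p cover the spread of arrays only, and the part of the probe sets was not tested. ZFP36 rose relative to ZFP36L1 by 0.59 (SE 0.08) and 0.997 (SE 0.12), and ZFP36L1 fell relative to ZFP36L2 by 0.98 (SE 0.17) and 1.47 (SE 0.19), each again at the smallest p. TOB1 and TOB2 differed by -0.05 (SE 0.12, exact p = 0.73) at 8 h and -0.11 (SE 0.08, exact p = 0.206) at 24 h, which leaves room for a difference of either sign.

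**Figure D3:**
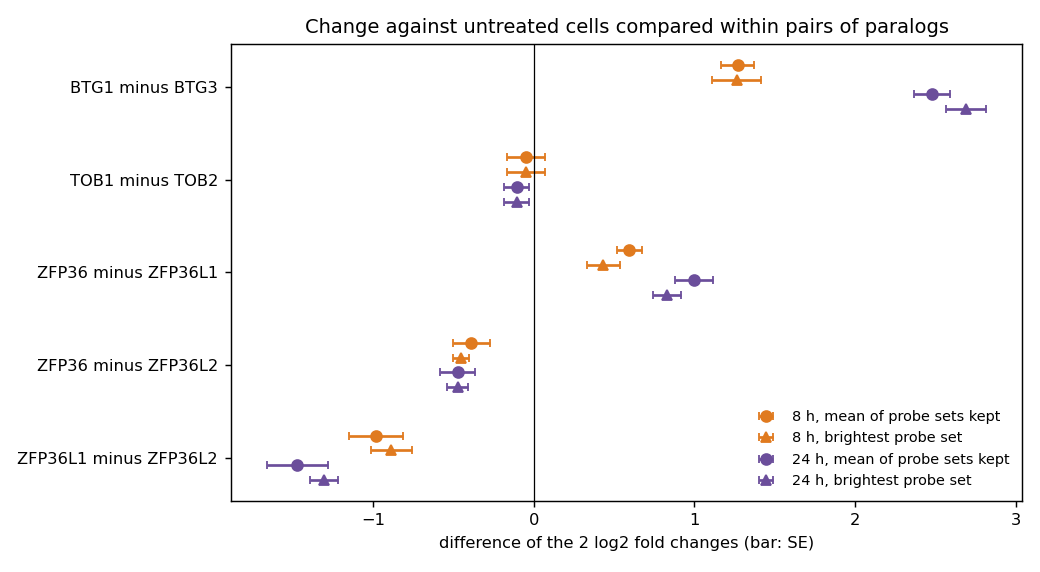
Difference of the log2 fold changes of 2 paralogs against untreated cells, with its SE (n = 5 treated and 4 untreated arrays), at 8 h and 24 h, from gene means (circles) and from the brightest probe set of each gene (triangles). All pairs but TOB1 and TOB2 lie away from 0 with both kinds of value.

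Over the 14 arrays, which share groups and runs, gene values of BTG1 and ZFP36L2 followed each other with Pearson r = 0.986, and those of ZFP36 and ZFP36L2 with r = 0.964. Group means were not removed, so genes that changed alike between the groups get a high r from that change alone. Correlations of genes within groups were not computed, and shared regulation was not tested. BTG3 ran against the members that rose, with r from -0.9 with TOB1 to -0.735 with BTG1. The genes outside the family with the most similar patterns were CD58 (r = 0.996), a cell adhesion molecule, and RAPGEF5 (0.994) for BTG1, MAGOHB (0.984) and HAT1 (0.979) for BTG3, and INTS6 (0.979) and ZSCAN16 (0.963) for TOB1. For TOB2 they were PLEKHM2 (0.982) and JUND (0.976), for ZFP36 FOXO1 and NDRG1 (0.984 each), and for ZFP36L2 RAPGEF5 (0.981) and NBR1 (0.979). ZFP36L1 had no gene as close, with NR1D2 (0.744) and USP36 (0.743) nearest. RAPGEF5 itself rose by 1.10 at 8 h and 1.75 at 24 h, and FOXO1 by 0.57 and 1.32.

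The partners of these proteins and the other genes of mRNA decay were taken from 8 lists. Their counts are read against all 6763 genes tested, of which 15.9% were higher and 18.6% lower at 8 h, and 30.7% higher and 32.8% lower at 24 h. With the run as a block, 46.4% of all genes were called at 8 h and 71% at 24 h, and counts with the block are read against these. CCR4-NOT is the complex to which both families bind, and of its 12 listed subunits 8 had probe sets and 5 passed the filter. At 8 h 0 of the 5 were called, and at 24 h CNOT4, a ubiquitin ligase subunit, rose by 0.34 (limma adjusted p = 0.00158, and 0.62 on its brightest probe set). Another subunit, CNOT9, fell by 0.63 at 24 h (limma adjusted p = 2.39e-06). CNOT7, a catalytic subunit that BTG and TOB proteins bind, differed by -0.12 at 8 h and -0.17 at 24 h and was not called. With the run as a block, 2 of the 5 were lower at 8 h, and at 24 h 1 was higher and 3 lower, CNOT7 among them (-0.13, limma adjusted p = 0.0371), which is 4 of 5 where 71% of all genes were called.

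The list of BTG and TOB partners, which also holds CNOT7, had 6 genes tested. SMAD1, a signal transducer of bone morphogenetic proteins, rose by 0.51 at 8 h (0.32 on its brightest probe set) and 1.08 at 24 h. PRMT1, an arginine methyltransferase that binds BTG1, fell by 0.77 and 1.09. The other 4, CNOT7 included, were not called at either time. With the run as a block 4 of the 6 were called at 24 h, 2 in each direction, where 71% of all genes were called.

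Of 13 other deadenylases and poly(A)-binding proteins listed, 10 were on the arrays and 6 passed the filter. Among the 6, 3 were higher and 3 lower at 8 h, and 2 were higher and 3 lower at 24 h. Without the filter, 2 of the 10 were higher and 3 lower at 8 h, and 2 were higher and 4 lower at 24 h. In that setting 19.7% of all genes were called at 8 h and 40.5% at 24 h. ANGEL2 rose by 0.34 and 0.38, and the cytoplasmic regulator PAIP1, which binds poly(A)-binding protein, fell by 0.38 and 0.54. Without the variance filter, where more probe sets of a gene are averaged, these came to 0.19 and 0.18 for ANGEL2 and to -0.21 and -0.19 for PAIP1, each still called. TOE1, a nuclear deadenylase, fell by 0.75 at 24 h. PAN2, the catalytic subunit of a deadenylase that acts before CCR4-NOT, was higher at 8 h by 0.47 (limma adjusted p = 0.00147) and differed by 0.20 at 24 h (limma adjusted p = 0.0796). At 8 h 3 of the 6 calls did not hold with each array left out: PABPN1 came down to 0.18 (adjusted p = 0.151) without untreated replicate 3, ANGEL1 to -0.26 (adjusted p = 0.0777) without untreated replicate 1 and TOE1 to -0.16 (adjusted p = 0.132) without untreated replicate 4.

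Of 13 decapping and 5′ decay genes, 1 was higher and 0 were lower at 8 h, and 2 were higher and 6 lower at 24 h. DCP2, the decapping enzyme, rose by 0.27 and 0.34. The other called higher at 24 h, LSM7, stood at 0.27 (limma adjusted p = 0.0485) and at 0.22 (adjusted p = 0.116) without 24 h replicate 2. It also missed the threshold without several other single arrays, without the variance filter (limma adjusted p = 0.0598) and with array weights (0.14, limma adjusted p = 0.183). With the run as a block LSM7 was called (0.30, limma adjusted p = 0.00124). The 6 that fell at 24 h were LSM2, LSM3, LSM4, LSM5 and LSM6, which belong both to the cytoplasmic decay ring and to the nuclear ring of splicing, and the scavenger enzyme DCPS. LSM4 fell by 0.89, DCPS by 0.65 and LSM5 by 0.60 (by 0.39 on its brightest probe set). With the run as a block 3 were called at 8 h, 1 higher and 2 lower.

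The RNA exosome degrades RNA from its 3′ end. Of 9 exosome and SKI complex genes tested, 0 rose and 4 fell at 8 h, 7 with the run as a block. At 24 h 0 rose and 7 fell. The genes tested were EXOSC genes, HBS1L and MTREX, and no DIS3 or SKIC gene of the list passed the filter. Without the filter, 1 of the 14 on the arrays was called higher and 7 lower at 24 h, where 40.5% of all genes were called. EXOSC5 fell by 0.96 at 8 h and 1.86 at 24 h, EXOSC7 by 0.65 and 1.12, and EXOSC2 by 0.40 and 0.96. Without the variance filter EXOSC7 stood at -0.39 and -0.64, and within day 1 EXOSC2 at 8 h stood at -0.24 (limma adjusted p = 0.0515). The median of the list at 24 h was -0.95 over the genes tested and -0.28 over all 14 on the arrays. The exosome also processes ribosomal RNA, so its genes are not those of mRNA decay alone.

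Of 15 other RNA-binding proteins that stabilize or destabilize mRNAs, 5 were higher and 0 lower at 8 h, which is 33.3% where 34.5% of all genes were called, and 9 were higher and 4 lower at 24 h. ARID5A, which stabilizes inflammatory mRNAs, rose by 0.73 and 1.14. SAMD4A, which also recruits deadenylases, rose by 0.38 and 0.77, with 0.71 and 1.57 on its brightest probe set and 0.22 and 0.46 without the variance filter. IGF2BP2, which stabilizes its targets, rose by 0.49 and 0.70. KHSRP, a decay factor for AU-rich mRNAs, fell by 0.61 at 24 h, and ELAVL1, which stabilizes such mRNAs, by 0.45.

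The kinases p38 and MK2 phosphorylate ZFP36 and hold it inactive. Of 15 genes listed for this pathway, 13 were on the arrays and 12 passed the filter. MAPK14, which encodes a p38 kinase, was not among those tested, nor were MAP2K3 and PPP2R1A. Of the 12, 3 were higher and 3 lower at 8 h, and 4 were higher and 3 lower at 24 h. MAP3K5, a kinase upstream of p38, rose by 2.33 and 2.70, and DUSP10, a phosphatase that switches p38 off, by 0.56 (0.33 within day 1) and 1.11. MAP2K6, which activates p38, fell by 0.81 and 0.75, and MAPKAPK3, a relative of MK2, by 0.55 and 0.60 (0.36 at 24 h on its brightest probe set). MAPKAPK2, which encodes MK2, differed by -0.21 and -0.04 and DUSP1, another p38 phosphatase, by -0.12 and -0.07, and neither was called.

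Of 42 mRNAs listed as bound by ZFP36 proteins through AU-rich elements, 37 were on the arrays and 23 passed the filter. At 8 h 3 were higher and 10 lower, and at 24 h 3 higher and 10 lower, with a median of -0.16 and -0.14 over the 23 and of -0.07 and -0.03 over all 37. NFKBIA, the inhibitor of NF-kappaB, rose by 1.41 and 1.70, and TNFAIP3, another inhibitor of that pathway, rose by 1.01 at 24 h. MYC fell by 1.11 and 0.96, PLAUR, the urokinase receptor, by 1.18 and 1.09, and CCND3, cyclin D3, by 0.88 and 0.83. CCNE1, cyclin E1, differed by -0.16 at 8 h (limma adjusted p = 0.215) and fell by 2.41 at 24 h. The mRNA levels measured here come from synthesis and decay together, and the arrays hold no measure of either alone.

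**Figure D4:**
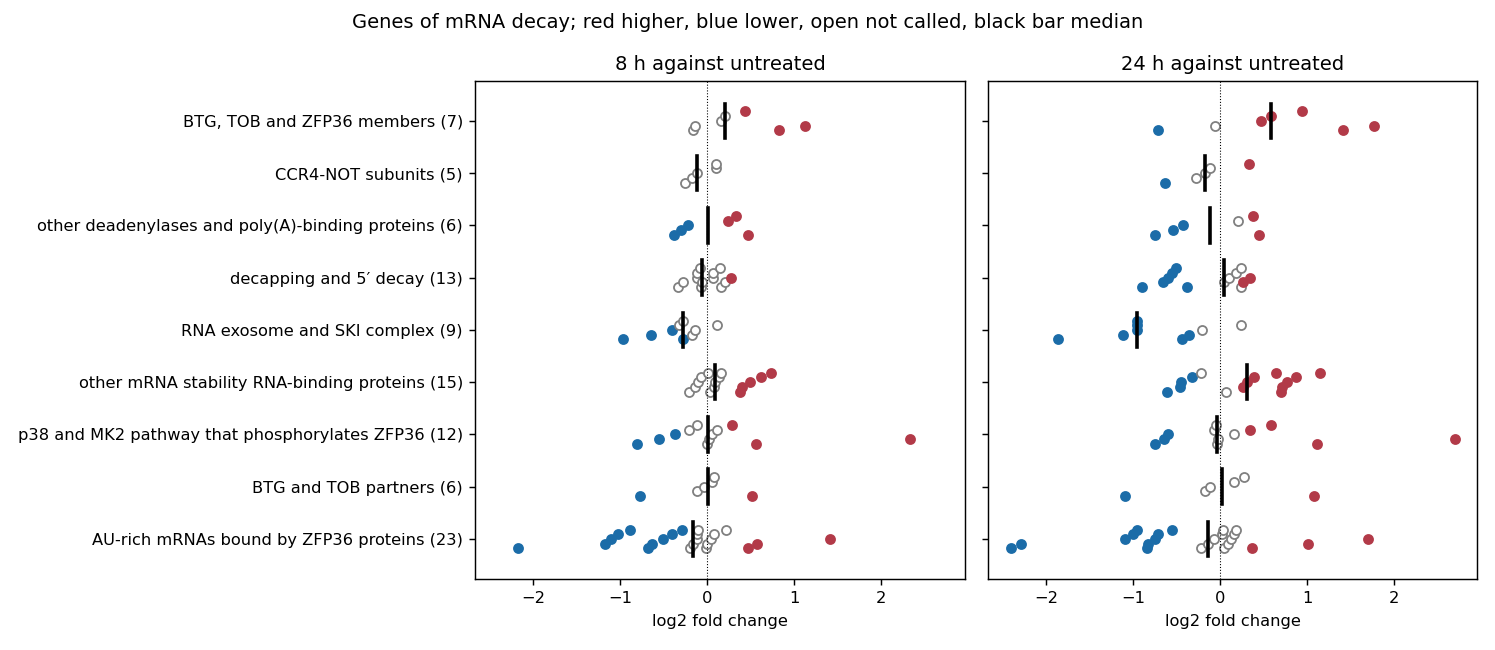
Log2 fold change of each gene tested in the 8 lists and of the 7 members at 8 h and at 24 h against untreated cells, 1 point per gene (number of genes in parentheses), filled where limma called it, with a black bar at the median. The genes tested from the exosome and SKI complex list, with no SKIC gene among them, lie mostly below 0 at 24 h. Their median is -0.95, where the members have a median of 0.58. Over all 14 genes of that list on the arrays the median is -0.28.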

How the data were processed

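RNA of RS4;11 cells was hybridized to 14 arrays (4 untreated, 5 at 8 h, 5 at 24 h). The authors excluded 1 untreated array after quality control, ran RMA background correction and normalization (affy, no version given) and deposited log2 expression values per probe set. The methods name Agilent arrays of a type with Affymetrix probe set names, and the labels an Affymetrix protocol. An array signal is not a molecule count, and precision is set by how many arrays there are and how they spread.

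The analysis used the 19070 probe sets that the annotation pairs with a single gene. Those whose interquartile range over the arrays exceeded its 0.5 quantile (9535) were averaged per gene. Groups were compared with limma 3.58.1 (lmFit and eBayes, R 4.3.3) over all 14 arrays without a block, with Benjamini-Hochberg adjustment over all genes of a comparison and a threshold of 0.05. A second fit took all probe sets without the filter. The calculation was tested on simulated data. The members, lists and tests were chosen with earlier results of these data known.

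The named genes are all members, from each list up to 3 genes per direction and time with the smallest adjusted p, the 2 genes of highest correlation with each member, and FKBP5 and TSC22D3. The text prints part of them, and CNOT7, LSM2, LSM3, LSM6, MAPKAPK2 and DUSP1 were named outside it after their values were seen and, apart from the run as a block, not followed under the alternatives. The comparison of paralogs was also chosen after seeing the data. Alternatives were other filters, probe set choices, scalings, blocks, weights, thresholds and array subsets, and each array left out in turn. Fits on array subsets kept the genes of the full fit. The runs, taken from the labels, pair the samples: residuals of arrays of the same run correlated with r from 0.376 to 0.64 in 13 pairs, against -0.571 to 0.6 in 52 pairs from different runs. These ranges overlap, and runs 1 and 2 share a day, so run and day were not told apart here. The run as a block is given where it changed the call of a printed value, or moved a printed count by over 1.5 times. Promoter windows come from RefSeq tables on GRCh38.p14.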

Additional observations from a re-analysis of the deposited data

Results flagged for a closer look

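In 57 groups of values of the members and their probe sets, the highest or lowest array was compared with the others of its group, and 5 arrays stood apart, where chance gives about 1 in 20. BTG3 at 8 h in replicate 2 was 7.623, with the other 4 arrays at 7.305 to 7.382. ZFP36 in untreated replicate 4 was 8.641, with the others at 8.897 to 8.93. Among single probe sets, 213277_at of ZFP36L1 was 4.221 in untreated replicate 3 (others 4.291 to 4.305), 213284_at of ZFP36L1 was 3.382 in untreated replicate 2 (others 3.925 to 3.997), and 201369_s_at of ZFP36L2 was 9.074 in 8 h replicate 5 (others 9.396 to 9.428).

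The effect at 24 h differed from that at 8 h for 6 members by limma, with both effects taken against the same untreated arrays, so that this difference is the change from 8 h to 24 h. It was 0.6357 for BTG1, -0.5731 for BTG3, 0.3148 for TOB1, 0.3745 for TOB2, 0.5035 for ZFP36 and 0.5891 for ZFP36L2, on the log2 scale (adjusted p = 0.000257, 7.01e-05, 0.00112, 0.011, 4.74e-05 and 0.000699).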

How the results depend on the processing

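No fold change of a member that was called in any setting reversed. Of 309 fold changes of members under settings other than leaving out an array, 298 stayed on the same side of the threshold and 11 passed it newly. All 294 with 1 array left out stayed. The number of members called at 8 h, 3 with the settings of the report, was 5 with the run as a replicate block, 5 with the day as a block, 6 with array weights and 5 with arrays of day 1 only, where 46.4%, 47.1%, 60.9% and 37.8% of all genes were called in place of 34.5%. TOB1 and TOB2 passed newly at 8 h with the run as a block, TOB1 but not TOB2 with the run as a random block, BTG3 with array weights (-0.27, adjusted p = 0.0065) and ZFP36L1 within day 1 (-0.29, adjusted p = 0.0458). The number of member probe sets called at 8 h, 5 in the report, was 8 with the day as a block and 8 with the run as a random block, where 25% and 23.5% of all probe sets were called in place of 16.9%. The run as a block moved no count of members at 24 h, or between 8 h and 24 h, by over 1.5 times. The probe set 222243_s_at of TOB2, called between 8 h and 24 h, missed the threshold without replicate 1 of 8 h (0.30, adjusted p = 0.0508). TOB1 and ZFP36L1 fell short of the filter at the 0.75 quantile, and 213284_at and 215425_at of the filter on dim probe sets, so that those settings gave no value for them. Several list genes lost a call in some settings. PTGS2, dim at a mean of 2.91 in untreated cells, counted among the AU-rich mRNAs called higher at both times. It missed the threshold at 24 h without untreated replicate 2 (0.29, adjusted p = 0.0728). At 8 h within day 1, PTGS2 (0.35, adjusted p = 0.0555), PAN2 (0.36, adjusted p = 0.0502) and MAPKAPK5 (-0.20, adjusted p = 0.0682) missed it. YWHAZ missed it at 8 h on its brightest probe set (0.21, adjusted p = 0.106). BTG3 at 24 h came to -1.12 with the filter on dim probe sets, which drops its dim probe set. The causes were not tested.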
